A study of Rattus norvegicus with 24 samples.

Results

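The circadian clock genes of rat liver and Noct are described here across 6 compounds. The group was chosen by name: every probe that the array design names Dbp, Nr1d1, Nr1d2, Per1, Per2, Tef, Arntl (the older name of Bmal1), Npas2, Clock or Ccrn4l (the older name of Noct), or that carries the gene's own record. This gave 10 genes of 15349 on the array, measured by 22 probes, of which 20 probes and all 10 genes passed the filter on dim probes. The single Noct probe was matched through its gene ID.

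Livers came from male F344 rats bought at 4 weeks of age, labelled 5 weeks old, kept under 12 h of light and 12 h of dark, and gavaged once daily (5 ml/kg) for 28 days. The study lists 4 of the compounds as carcinogens. Their daily doses were 250 mg/kg of 3-(4-chlorophenyl)-1,1-dimethylurea (monuron below), 150 mg/kg of 1-amino-2-methylanthraquinone, 50 mg/kg of 1,2,3-trichloropropane and 500 mg/kg of hexachloroethane. It lists 2 as non-carcinogens, of which the rats received 1000 mg/kg of tetracycline hydrochloride or 300 mg/kg of 1,2-dichlorobenzene. The vehicle was water for tetracycline hydrochloride and corn oil for the other compounds. Each compound had 4 treated rats, 1 per array, and the RNA of its 4 vehicle rats was pooled and hybridised to the same arrays in the other dye. The hour of liver collection is not given in the sources used here.

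Each value is a log2 ratio of 1 treated rat (Cy3) over its vehicle pool (Cy5), so 0 means an equal level and 1 a doubling. Dyes were not swapped, and a pool is 1 control sample, so the tests leave out the spread between vehicle rats and include any dye effect. No slide held more than 1 compound, and an effect of the slide cannot be told apart from that of the compound. Hexachloroethane and tetracycline hydrochloride were scanned on day 1, 1-amino-2-methylanthraquinone on day 2, 1,2,3-trichloropropane on day 3, and monuron and 1,2-dichlorobenzene on day 4. Between 59.7% and 71.7% of probes had both of their spots well above background in the treated channel, against 64.2% to 75.9% in the vehicle channel. All 10 hepatocyte markers measured were well above background on every array, with treated levels of 14.7 to 17.8 on the log2 scale, against a median of 9.50 over all genes tested. A gene was called when its Benjamini-Hochberg adjusted p over all 11508 genes tested (limma) was under 0.05 and it changed at least 2-fold.

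The liver clock is a feedback loop. BMAL1 pairs with CLOCK or NPAS2 and activates Per, Cry and Nr1d genes through E-boxes. PER and CRY proteins then repress that activation, and NR1D1 and NR1D2 (REV-ERB alpha and beta) repress Bmal1 and Npas2. Dbp and Tef encode PAR bZIP factors that drive output genes through D-boxes. Noct (nocturnin) encodes a rhythmic phosphatase of nicotinamide dinucleotides, known in mouse for its part in lipid metabolism. In a nocturnal animal the transcripts of Dbp, Per and Nr1d genes peak in anti-phase to Bmal1 and Npas2, so their level in one liver depends on the hour at which it was taken.

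The probes are 60 bases long and carry the identity of each measurement. They are shown for Noct, whose ratios moved furthest, and for Per1 and Nr1d1, whose probes of different sequence gave different directions.
Noct 701400: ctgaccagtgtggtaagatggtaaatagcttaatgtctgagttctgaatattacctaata
Per1 16242: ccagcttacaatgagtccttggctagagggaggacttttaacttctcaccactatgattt
Per1 3194: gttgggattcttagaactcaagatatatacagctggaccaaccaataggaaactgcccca
Per1 703153: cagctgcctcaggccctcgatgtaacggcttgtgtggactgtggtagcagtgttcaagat
Nr1d1 1010: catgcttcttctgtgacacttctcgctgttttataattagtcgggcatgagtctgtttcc
Nr1d1 703654: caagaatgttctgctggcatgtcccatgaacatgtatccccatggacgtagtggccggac
Nr1d1 2862: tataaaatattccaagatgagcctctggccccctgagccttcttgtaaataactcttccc
The longest run shared by any 2 of these Per1 probes was 7 bases, and by any 2 of these Nr1d1 probes 6 bases. Per1 was also measured by probe 6242, which has the sequence of 16242 and served as a technical copy of it. The brightest kept probe stands for each gene below: 16242 for Per1 and 1010 for Nr1d1.

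Noct was lower than vehicle after 4 compounds and was the only one of the 10 genes called against vehicle. After 1,2,3-trichloropropane the 4 rats had log2 ratios of -1.69, -0.59, -3.33 and -3.74, a mean of -2.34 ± 1.46 (SD, n = 4; limma adjusted p = 0.000929). After 1-amino-2-methylanthraquinone they had -0.39, -1.27, -2.10 and -3.28, a mean of -1.76 ± 1.23 (SD, n = 4; limma adjusted p = 0.00585). Every rat of both compounds lay below its pool, and rats of the same compound differed by several-fold.

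After monuron the log2 ratios of Noct were -0.72, -0.49, -2.01 and -3.11, a mean of -1.58 ± 1.22 (SD, n = 4; limma adjusted p = 0.0155). After 1,2-dichlorobenzene they were -0.08, -0.93, -2.38 and -1.59, a mean of -1.24 ± 0.97 (SD, n = 4; limma adjusted p = 0.0471). All 4 rats of each compound were again below the pool. Both calls rest on single rats: without monuron rat 3 or 4 the adjusted p was 0.0642 or 0.137, and without 1,2-dichlorobenzene rat 2, 3 or 4 it was 0.077, 0.24 or 0.133. The call after 1,2-dichlorobenzene was also lost with the scanner's log ratios (adjusted p = 0.0657), the series table (0.0658) and no filter on dim probes (0.0509). The call after 1-amino-2-methylanthraquinone was lost without rat 4 (adjusted p = 0.0687), while that after 1,2,3-trichloropropane was kept without each rat in turn.

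Noct stood above its pool in the rats given hexachloroethane and tetracycline hydrochloride, without passing the test. With the replicate number as a block in the fit, Noct was called after hexachloroethane (limma adjusted p = 0.0293). That fit is an alternative only: the numbers are not said to pair the rats, and 8 of 24 rats were closest to their own number. The log2 ratios after hexachloroethane were 2.47, 0.46, 0.09 and 1.21, a mean of 1.06 ± 1.05 (SD, n = 4; limma adjusted p = 0.102). After tetracycline hydrochloride they were 0.16, 0.30, 0.09 and 0.80, a mean of 0.34 ± 0.32 (SD, n = 4; limma adjusted p = 0.639). The log2 ratios of the rats of these 2 compounds, each over its own pool, did not overlap with those of the other 4 compounds. The treated levels did not divide this way. Their means after these 2 compounds lay within the range of the other 4, which was 8.95 to 9.93.

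**Figure D1:**
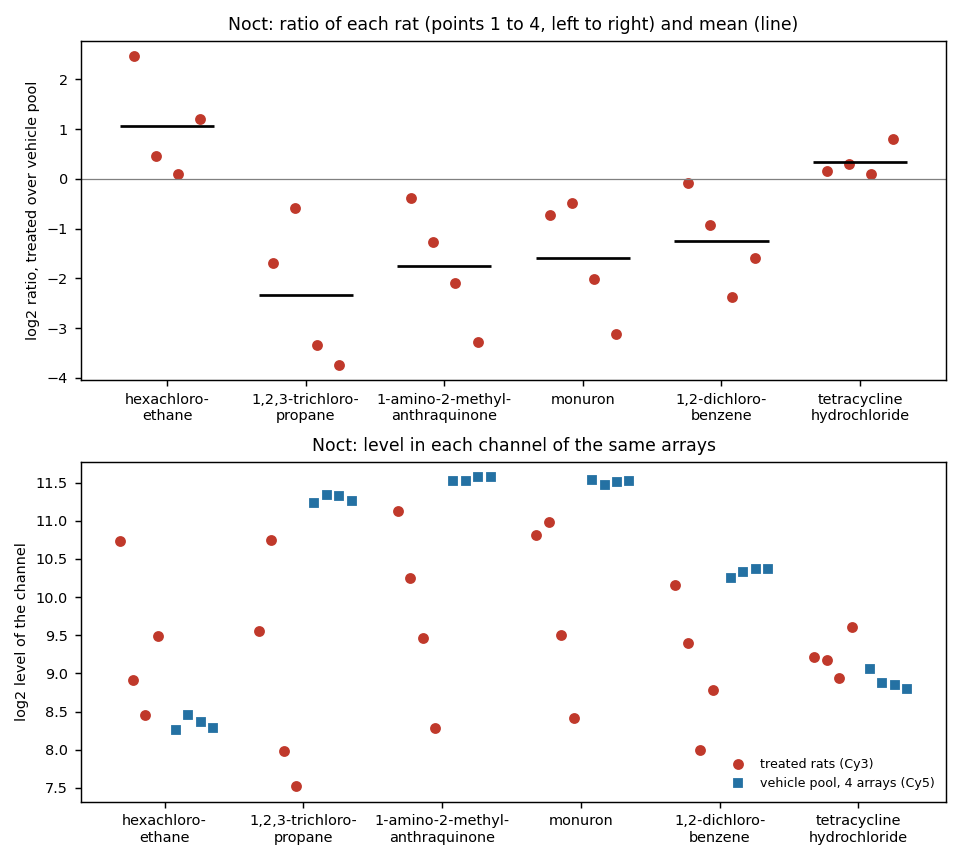
Noct in every rat. The upper panel gives the log2 ratio of each rat over its vehicle pool, with the mean as a line, and the lower panel gives the log2 level in the treated channel (circles) beside the same pool read on 4 arrays (squares). Treated means lie between 8.95 and 9.93, while the vehicle squares stand near 8.34 and 8.89 for hexachloroethane and tetracycline hydrochloride and between 10.33 and 11.55 for the other 4 compounds.

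The levels in each channel show where these ratios differ. Treated rats averaged 9.40 ± 0.99 (SD, n = 4) on the log2 scale after hexachloroethane, against 8.34 in their vehicle pool. They averaged 8.95 ± 1.48 (SD, n = 4) after 1,2,3-trichloropropane, against 11.29 in the pool. Over the 6 compounds the treated means spanned 0.97 and the pool means 3.21, so the compounds differed more in the level of their pools than in that of their treated rats. A span of 3.21 in the vehicle channel was exceeded by few genes (99.9th percentile of all genes tested, median 0.35). Pools also differed in other clock genes, most in Per2 (span 1.20), Per1 (0.88) and Dbp (0.68), at percentiles 98, 94 and 87.

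The other treated means of Noct were 9.79 for 1-amino-2-methylanthraquinone, 9.93 for monuron, 9.09 for 1,2-dichlorobenzene and 9.23 for tetracycline hydrochloride. The pools stood at 11.55, 11.51, 10.33 and 8.89 for these compounds in the same order. The 2 low pools, of hexachloroethane and tetracycline hydrochloride, are those scanned on day 1, and 1 of them was corn oil and the other water. With 1 pool per compound, the level of a pool cannot be told apart from an effect of its scan day or slide.

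Among treated rats of a compound the level of Noct varied by an SD of 1.08, while among the 4 arrays that carried the same pool it varied by 0.07 (both pooled over the compounds). The SD of its ratio within compounds was 1.10, at the 99.9th percentile of all genes, whose median was 0.10. Per2 (0.35) and Per1 (0.34) followed, both near the 96th percentile. Npas2 and Dbp had 0.19, Nr1d2 0.16 and Nr1d1 0.13, and Bmal1, Tef and Clock had 0.08 or less.

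**Figure D2:**
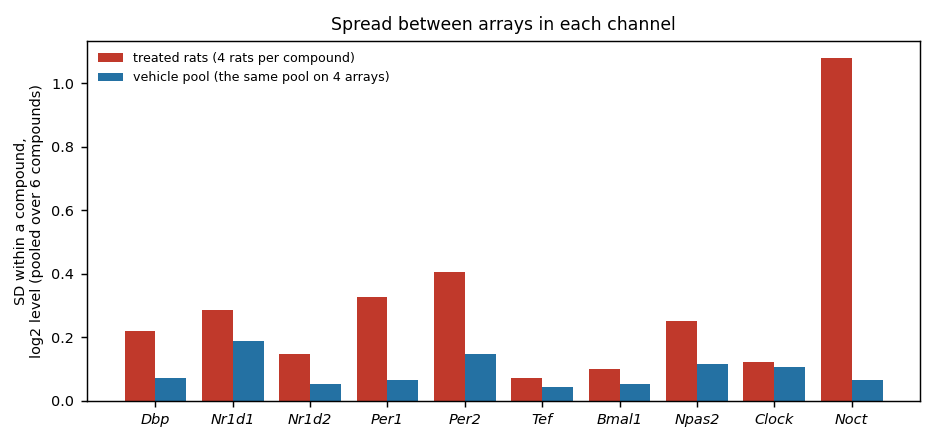
Spread between arrays within a compound, as the SD of the log2 level pooled over 6 compounds. Left bars are treated rats, right bars are the vehicle pool read on 4 arrays. Noct had 1.08 in treated rats and 0.07 in the pool, where repeat readings of 1 RNA hold technical spread only.

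Dbp, the PAR bZIP factor with a large daily amplitude in liver, moved in both directions. After monuron its log2 ratios were 0.60, 0.39, 0.70 and 1.11, a mean of 0.70 ± 0.30 (SD, n = 4; limma adjusted p = 2.41e-06). After 1,2-dichlorobenzene they were 0.58, 0.44, 0.49 and 0.35, a mean of 0.47 ± 0.10 (SD, n = 4; limma adjusted p = 0.000186). After 1-amino-2-methylanthraquinone they were -0.25, -0.40, -0.51 and -0.69, a mean of -0.46 ± 0.19 (SD, n = 4; limma adjusted p = 0.000148). All 8 rats of the first 2 compounds were above their pools and all 4 of the third below, but none of the means reached 2-fold. The pools of monuron (9.50) and 1,2-dichlorobenzene (9.56), scanned on the same day, were the lowest in Dbp. Treated levels averaged 10.20 after monuron and 10.36 after hexachloroethane, whose pool stood at 10.19.

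The mean of Dbp after 1,2,3-trichloropropane was 0.22 (limma adjusted p = 0.0477), and this direction turned with median centring in place of loess (-0.13). Hexachloroethane (0.18) and tetracycline hydrochloride (-0.13) did not pass. A pair of further Dbp probes with the same sequence as each other had mean ratios of 0.58 and 0.64 after monuron and -0.28 and -0.23 after 1-amino-2-methylanthraquinone.

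Tef, the other PAR bZIP factor, was dim (log2 levels of 6.84 to 7.47 in treated rats) and moved less. After monuron its rats had 0.32, 0.30, 0.22 and 0.22, a mean of 0.27 ± 0.05 (SD, n = 4; limma adjusted p = 1.94e-06). After 1-amino-2-methylanthraquinone the mean was -0.16 ± 0.06 (SD, n = 4; limma adjusted p = 0.000318), which turned with median centring (0.27). Dbp and Tef thus passed at an adjusted p in the same direction after these 2 compounds under the main scaling. For Tef this rests on probe 4799, which was well above background on 1 of 4 treated arrays of 1-amino-2-methylanthraquinone. A second Tef probe of different sequence, 702317, had deviations that correlated with those of 4799 by r = 0.05 over 24 rats, as a description.

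Nr1d2, the repressor REV-ERB beta, was higher after monuron and passed after no other compound. Its log2 ratios were 0.92, 0.73, 1.03 and 1.21, a mean of 0.97 ± 0.20 (SD, n = 4; limma adjusted p = 3.36e-09), which is 1.96-fold and just under the limit of the call. It was called with the scanner's log ratios (1.30) and the series table (1.32). Median centring gave 0.83, further under that limit, and did not call it. The other 5 compounds had means of 0.08 to 0.18. No rat of another compound reached the lowest monuron rat. The second probe, 705511, was not well above background on any array and did not pass the filter. Monuron exceeded 1,2-dichlorobenzene, scanned on the same day, by 0.80 (95% interval 0.58 to 1.02; limma adjusted p = 1.48e-05).

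The probes of Nr1d1, which encodes REV-ERB alpha, disagreed after monuron. The brightest, 1010, had -0.65, -0.39, -0.43 and -0.48, a mean of -0.49 ± 0.12 (SD, n = 4; limma adjusted p = 2.17e-06). Probe 703654 had 0.58, 0.48, 0.84 and 1.06, a mean of 0.74 ± 0.26 (SD, n = 4; limma adjusted p = 3.52e-07 in its place). Probe 2862 had 0.33, 0.22, 0.74 and 0.79, a mean of 0.52 ± 0.29 (SD, n = 4; limma adjusted p = 1.89e-06 in its place). No direction is therefore given for Nr1d1 after monuron.

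By probe 1010 Nr1d1 also passed at an adjusted p after hexachloroethane (-0.48), 1-amino-2-methylanthraquinone (-0.34) and 1,2-dichlorobenzene (-0.25). Probe 703654 gave -0.18, 0.02 and -0.18 for these compounds and probe 2862 gave -0.02, -0.03 and -0.02, none of which passed. The deviations of probe 1010 from the compound means correlated with those of 703654 by r = 0.09 and of 2862 by r = 0.28 over 24 rats, as a description.

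**Figure D3:**
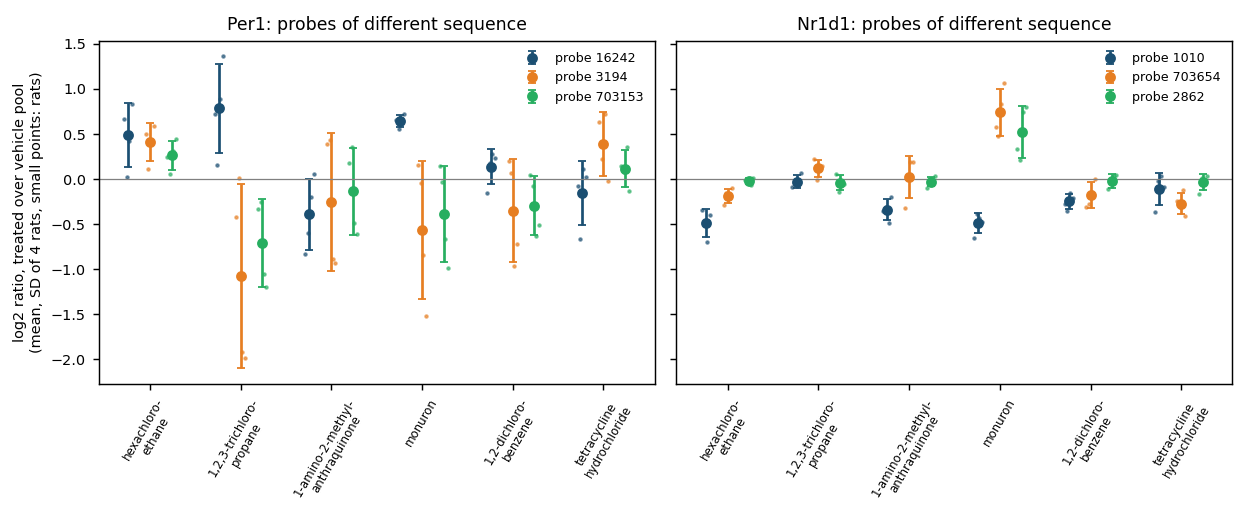
Probes of different sequence for Per1 (left) and Nr1d1 (right), as the mean log2 ratio of 4 rats with its SD, and each rat as a small point. For 1,2,3-trichloropropane Per1 probe 16242 averaged 0.78 and probes 3194 and 703153 averaged -1.08 and -0.71, and for monuron Nr1d1 probe 1010 averaged -0.49 and probe 703654 averaged 0.74.

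The same happened with Per1, a core repressor whose transcript is also induced by glucocorticoids. By probe 16242 its log2 ratios after 1,2,3-trichloropropane were 0.73, 0.16, 0.89 and 1.36, a mean of 0.78 ± 0.50 (SD, n = 4; limma adjusted p = 0.00046). By probe 3194 they were -0.42, 0.01, -1.91 and -1.98, a mean of -1.08 ± 1.02 (SD, n = 4; limma adjusted p = 0.00799 in its place). By probe 703153 the mean was -0.71 ± 0.49 (SD, n = 4; limma adjusted p = 0.00356 in its place). No direction is given for Per1 after this compound.

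After hexachloroethane all 3 Per1 probes averaged above 0, at 0.49 (16242, limma adjusted p = 0.0166), 0.41 (3194) and 0.26 (703153). The first of these turned with median centring (-0.05). After monuron probe 16242 averaged 0.65 (limma adjusted p = 0.00229), against -0.56 and -0.39 by the other 2 probes. After 1-amino-2-methylanthraquinone the means were -0.39 (limma adjusted p = 0.0396), -0.25 and -0.14.

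Per2, the second Period gene, was lower after 1-amino-2-methylanthraquinone and monuron. Its log2 ratios were -0.87, -0.72, -1.17 and -1.23 after 1-amino-2-methylanthraquinone, a mean of -0.996 ± 0.24 (SD, n = 4; limma adjusted p = 2.46e-05). They were -0.93, -1.05, -1.004 and -0.71 after monuron, a mean of -0.92 ± 0.15 (SD, n = 4; limma adjusted p = 0.000112). All 8 rats were below their pools, and the second probe, 700852, gave -0.97 and -0.82. Both means fell just short of 2-fold, and both were called with median centring (-1.44 and -1.24), the scanner's log ratios (-1.11 and -1.03) and the series table (-1.10 and -1.04).

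Per2 averaged -0.45 after tetracycline hydrochloride (limma adjusted p = 0.0336) and did not pass after the other 3 compounds. After hexachloroethane its rats were spread widely, at 0.61, -0.04, -0.92 and -0.33. Monuron was below 1,2-dichlorobenzene by a difference of -0.93 (95% interval -1.41 to -0.45; limma adjusted p = 0.00593).

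**Figure D4:**
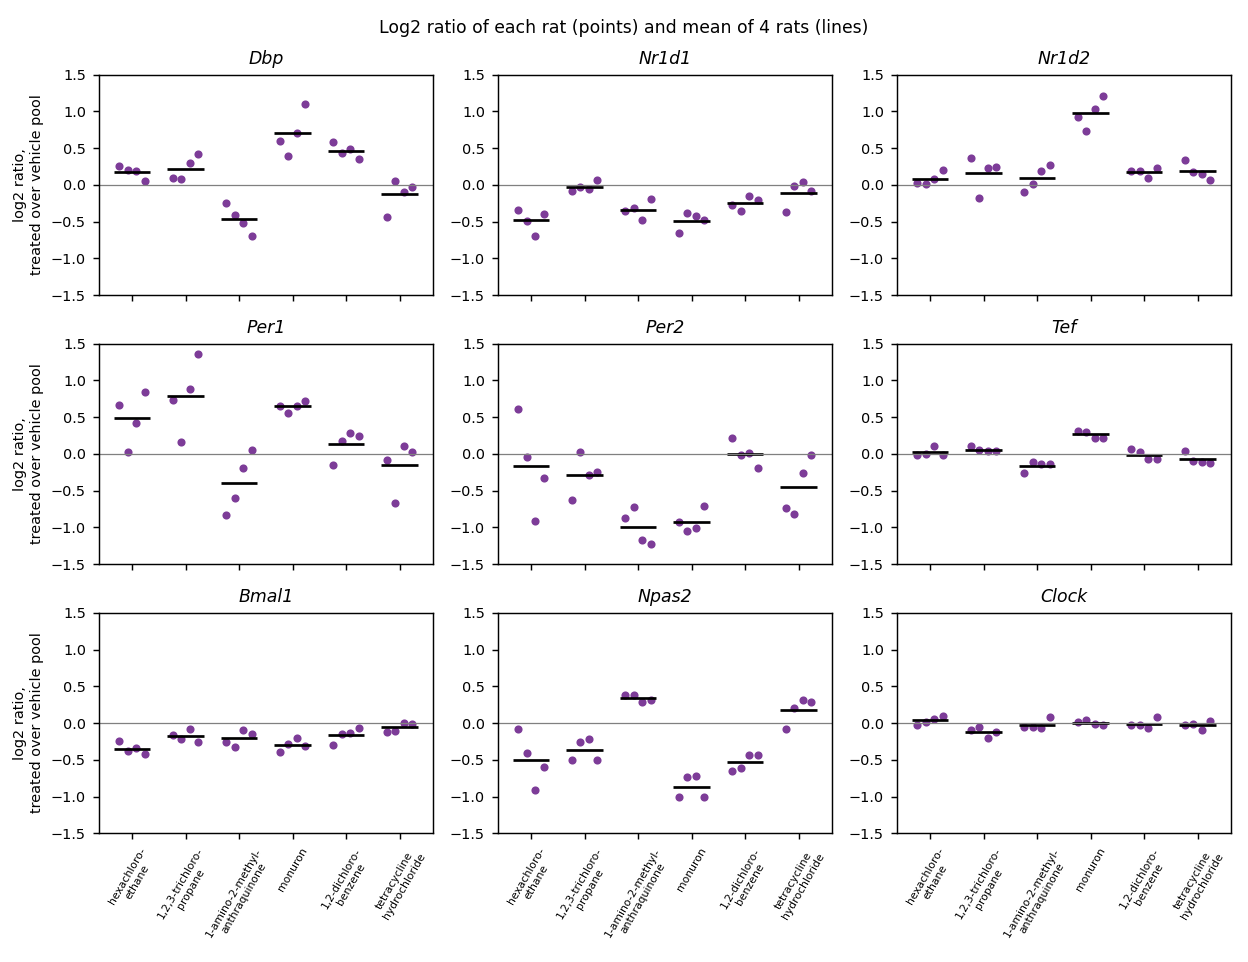
The 9 genes other than Noct by the brightest probe, as the log2 ratio of each rat (points 1 to 4, left to right) and the mean (line) for each compound. Nr1d2 stands near 1 in the 4 monuron rats only, Per2 near -1 after 1-amino-2-methylanthraquinone and monuron, and Bmal1 at or below 0 in all 24 rats.

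Of the activators, Bmal1 moved little but evenly. All 24 rats were below 0, and the mean passed at an adjusted p after 5 compounds, with hexachloroethane lowest at -0.35 ± 0.08 and monuron at -0.30 ± 0.08 (SD, n = 4 each). The others were -0.21 after 1-amino-2-methylanthraquinone, -0.18 after 1,2,3-trichloropropane and -0.16 after 1,2-dichlorobenzene, and tetracycline hydrochloride had -0.06. Since every array has the same dye orientation, a dye effect of the probe was not tested. The 2 Bmal1 probes share a run of 25 bases and are not independent.

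Npas2, the partner of BMAL1 that can stand in for CLOCK, was lower after 4 compounds and higher after 1-amino-2-methylanthraquinone. Its log2 ratios after monuron were -1.01, -0.73, -0.71 and -1.002, a mean of -0.86 ± 0.16 (SD, n = 4; limma adjusted p = 1.99e-07). The means were -0.53 after 1,2-dichlorobenzene, -0.50 after hexachloroethane and -0.37 after 1,2,3-trichloropropane. After 1-amino-2-methylanthraquinone its rats had 0.38, 0.38, 0.28 and 0.32, a mean of 0.34 ± 0.05 (SD, n = 4; limma adjusted p = 0.00309), which turned with median centring (-0.03). The mean after monuron was called with median centring (-1.12), the scanner's log ratios (-1.01) and the series table (-1.04).

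Clock was not well above background in the treated channel of any array and passed the filter only through the vehicle pool of tetracycline hydrochloride. No fold is given for it. Its adjusted p after 1,2,3-trichloropropane (0.00536) is included in the counts below, and that direction turned with median centring.

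By adjusted p and at least 2-fold, 1 of 10 clock genes was called (Noct) after each of 1-amino-2-methylanthraquinone, 1,2,3-trichloropropane, monuron and 1,2-dichlorobenzene, where 2.13%, 0.912%, 1.40% and 1.59% of all genes were called. None was called after hexachloroethane or tetracycline hydrochloride, where 0.912% and 0.287% of all genes were called. By adjusted p alone, 4 of 10 passed after hexachloroethane (43.5% of all genes), 6 after 1,2,3-trichloropropane (45.7%), 8 after 1-amino-2-methylanthraquinone (58.8%), 9 after monuron (46.1%), 5 after 1,2-dichlorobenzene (51.8%) and 1 after tetracycline hydrochloride (37.4%). The median of the 10 genes ranged from -0.27 after 1-amino-2-methylanthraquinone to 0.03 after hexachloroethane, and that of all genes from -0.02 to -0.01.

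Against the mean of the other 5 compounds, Noct differed by 2.37 for hexachloroethane (SE 0.56; limma adjusted p = 0.00343), by -1.70 for 1,2,3-trichloropropane (SE 0.56; limma adjusted p = 0.026) and by 1.51 for tetracycline hydrochloride (SE 0.56; limma adjusted p = 0.0433). Each was the only clock gene called, where 0.634%, 0.408% and 0.574% of all genes were called. Leaving out any one of the 4 tetracycline hydrochloride rats, or 1,2,3-trichloropropane rat 3 or 4, ended the call of that compound. None was called for 1-amino-2-methylanthraquinone (1.29% of all genes), monuron (0.608%) or 1,2-dichlorobenzene (0.521%). By adjusted p alone, 4 clock genes passed for hexachloroethane (28.4% of all genes), 4 for 1,2,3-trichloropropane (30.6%), 6 for 1-amino-2-methylanthraquinone (48.4%), 6 for monuron (22.5%), 3 for 1,2-dichlorobenzene (31.1%) and 7 for tetracycline hydrochloride (32.8%).

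Between pairs of compounds, Noct was higher after hexachloroethane than after 1,2,3-trichloropropane by 3.39 (95% interval 1.89 to 4.90; limma adjusted p = 0.00112), a pair scanned on different days. It was the only clock gene called there (1.39% of all genes). In the pairs scanned on 1 day Noct did not pass: hexachloroethane minus tetracycline hydrochloride was 0.72 (95% interval -0.79 to 2.22) and monuron minus 1,2-dichlorobenzene was -0.34 (95% interval -1.84 to 1.17). No clock gene was called in these pairs (0.808% and 0.973% of all genes). By adjusted p alone, 4 clock genes passed between hexachloroethane and 1,2,3-trichloropropane (35.0% of all genes), 3 between hexachloroethane and tetracycline hydrochloride (17.5%) and 3 between monuron and 1,2-dichlorobenzene (23.9%). Those 3 of the last pair were Nr1d2, Per2 and Tef, which differed by 0.27.

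Over the 6 compounds together, 9 of 10 clock genes passed limma's F test, as did 77.0% of all genes, and Clock was the exception. Between the 4 carcinogens and the 2 non-carcinogens, no clock gene and 0% of all genes were called by limma with the compound as a block, and 0 clock genes and 191 genes in all had an unadjusted p under 0.05. Noct had a carcinogen mean of -1.16 and a non-carcinogen mean of -0.45, a difference of -0.70 (SE 1.15).

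Each rat's deviation from its compound mean was then compared between genes, and Noct and Dbp had r = -0.20 over 24 rats, as a description. No clock gene passed limma's slope on Dbp (0.00869% of all genes passed) and none had an unadjusted p under 0.05. On Noct, a covariate chosen after seeing the data, no clock gene passed either, 0.765% of all genes did, and 2 clock genes, Nr1d2 and Per1, had an unadjusted p under 0.05. Their slopes were -0.09 (SE 0.03; adjusted p = 0.127) and -0.16 (SE 0.06; adjusted p = 0.259). The Per1 slope is that of probe 16242, while probes 3194 and 703153 correlated with Noct by r = 0.84 and 0.81 over the 24 rats, as a description.

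**Figure D5:**
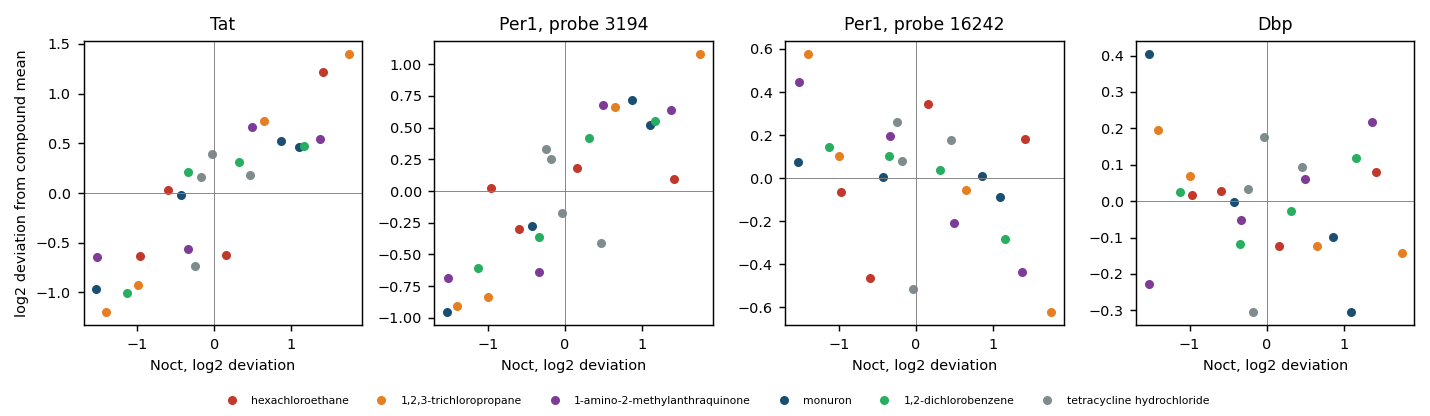
Deviation of each of 24 rats from its compound mean, in log2 units, for Tat, 2 Per1 probes and Dbp against Noct. Colours are compounds. Tat (r = 0.88) and Per1 probe 3194 (r = 0.84) run up with Noct, Per1 probe 16242 runs down (r = -0.53), and Dbp (r = -0.20) shows little slope.

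The genes whose deviations were most like those of Noct were Tat (tyrosine aminotransferase, r = 0.88), Gskip (0.86), Ppp1r3c (a glycogen-targeting phosphatase subunit, 0.85), Tsc22d3 (GILZ, a glucocorticoid-induced factor, 0.84) and Ifrd1 (0.84). Those most unlike it were Smad6 (-0.88), Il1b (-0.82), Dab2 (-0.76), Acvrl1 (-0.75) and Id3 (-0.75). All are over 24 rats on shared arrays, among named genes only. Each slope passed after adjustment over all genes, but it uses the same deviations as r and is not separate support. Tat had a mean log2 ratio of -2.21 ± 1.26 after 1,2,3-trichloropropane (SD, n = 4; limma adjusted p = 8.98e-05). Its pools stood at 15.2 and 15.3 for hexachloroethane and tetracycline hydrochloride and at 16.1 to 16.7 for the other 4 compounds, the same division of pools as in Noct. For Dbp the most alike was Gsto1 (r = 0.78) and the least Mtrex (-0.74), and neither slope passed.

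Of 18 genes listed for glucocorticoid response and fasting, all of them measured, none was called higher after any compound. Called lower were 8 after 1,2,3-trichloropropane (0.912% of all genes were called in either direction), 6 after 1-amino-2-methylanthraquinone (2.13%), 6 after monuron (1.40%), 5 after 1,2-dichlorobenzene (1.59%), 2 after hexachloroethane (0.912%) and none after tetracycline hydrochloride (0.287%). Sds, a serine dehydratase of gluconeogenesis, averaged -2.41 ± 0.25 after 1,2,3-trichloropropane and -2.25 ± 0.62 after 1-amino-2-methylanthraquinone (SD, n = 4 each). Pck1 averaged -1.73 ± 0.66 after 1,2,3-trichloropropane and -1.36 ± 0.57 after monuron (SD, n = 4 each). Its pools stood at 16.9 and 16.8 for hexachloroethane and tetracycline hydrochloride and at 17.7 to 17.8 for the other 4 compounds. The list's median log2 ratio was lowest after monuron (-0.64) and 1-amino-2-methylanthraquinone (-0.62) and highest after tetracycline hydrochloride (-0.0082), against -0.02 over all genes tested in each.

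Of 21 genes listed as clock output in liver, 17 were measured. Called among them were 3 after 1,2,3-trichloropropane, all lower (0.912% of all genes called), 2 after 1-amino-2-methylanthraquinone, both lower (2.13%), and 1 after monuron, lower (1.40%). After 1,2-dichlorobenzene 1 was called higher and 2 lower (1.59%), after hexachloroethane 1 higher (0.912%), and after tetracycline hydrochloride none (0.287%). Ppp1r3c was called lower after 1,2,3-trichloropropane (-1.57 ± 0.85), 1-amino-2-methylanthraquinone (-1.08 ± 0.59), monuron (-1.28 ± 0.62) and 1,2-dichlorobenzene (-1.47 ± 0.41; SD, n = 4 each). Its pools stood at 15.21 to 15.57 for these compounds, against 13.57 for hexachloroethane and 14.47 for tetracycline hydrochloride. Treated means were 13.75 to 14.49 after the 4 compounds and 13.39 after hexachloroethane. Lpin1, a phosphatidate phosphatase, was called lower after 1,2,3-trichloropropane (-1.36 ± 1.06), and Cyp7a1, the rate-limiting enzyme of bile acid synthesis, after 1-amino-2-methylanthraquinone (-1.03 ± 0.85; SD, n = 4 each). Tsku was called higher after hexachloroethane (1.38 ± 0.42) and lower after 1,2,3-trichloropropane (-1.64 ± 1.54; SD, n = 4 each). Nampt, the rate-limiting enzyme of NAD salvage, was called lower after 1,2-dichlorobenzene (-1.002 ± 0.24), where Tfrc was called higher (1.13 ± 0.25; SD, n = 4 each). Of 19 further clock genes listed, 6 were measured and none was called after any compound. By adjusted p alone, 3 of the 6 were higher and 3 lower after 1-amino-2-methylanthraquinone, with a median of 0.02 (58.8% of all genes passed in either direction). Those higher there were Btrc (0.34) and the casein kinases Csnk1d (0.30) and Csnk1e (0.18). Those lower were Cry1, Fbxw11 (-0.18) and Cry2 (-0.14). Cry1, the repressor that pairs with PER, averaged -0.76 ± 0.21 after 1-amino-2-methylanthraquinone (limma adjusted p = 4.22e-07) and -0.56 ± 0.36 after monuron (SD, n = 4 each; limma adjusted p = 3.97e-05). It averaged -0.26 ± 0.13 after tetracycline hydrochloride (SD, n = 4; limma adjusted p = 0.0286).

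Markers of other liver cells were set beside Noct in the same way. The mean deviations of the lists for Kupffer (5 of 6 markers measured), bile duct (4 of 5), stellate (3 of 5), endothelial (3 of 4), lymphocyte (2 of 5) and erythroid cells (2 of 4) had r between -0.37 and -0.18 with its deviations. Both erythroid markers and 1 Kupffer marker were called higher after monuron (1.40% of all genes called), and 3 of 4 bile duct markers after 1-amino-2-methylanthraquinone (2.13%). The mean deviation of the 10 hepatocyte markers had r = -0.11 with that of Noct. These markers had medians of -0.59 to -0.31 over the 6 compounds. By adjusted p alone 6 to 10 of them passed lower, where 37.4% to 58.8% of all genes passed in either direction. Of these, 1 was called lower after 1,2,3-trichloropropane and 1 after 1,2-dichlorobenzene. Their part in the clock genes' values was not tested. In whole liver, fewer cells of a type and less RNA per cell cannot be told apart.

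Promoters of the 10 genes were searched on both strands for the E-box CACGTG, the D-box TTATGTAA, the nuclear receptor core AGGTCA and the cyclic AMP element TGACGTCA, in RefSeq windows of build GRCr8 that run from 250 bases before to 50 after each start. These are the 5 windows with a match, with the motif in capitals, shown so that the letters near each start can be read beside the values above.
Nr1d1, chr10:84229623-84229662, minus strand: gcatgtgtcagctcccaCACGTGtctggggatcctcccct
Tef, chr7:115206612-115206651, plus strand: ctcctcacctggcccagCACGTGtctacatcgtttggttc
Per2, chr9:99497161-99497202, minus strand: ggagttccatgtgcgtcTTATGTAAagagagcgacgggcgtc
Bmal1, chr1:176766296-176766335, plus strand: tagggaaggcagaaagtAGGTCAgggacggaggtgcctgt
Nr1d2, chr15:9954830-9954869, plus strand: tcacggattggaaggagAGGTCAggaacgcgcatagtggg
Among all 33469 windows, 6.42% held the E-box, 0.893% the D-box, 16.2% the nuclear receptor core and 1.83% the cyclic AMP element. The windows of Dbp, Noct, Npas2, Per1 and Clock, and the other Nr1d1 start, had none of the 4 runs of letters.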

How the data were processed

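Liver RNA of 24 treated rats was measured on 24 two-colour Agilent arrays, 4 per compound. Per the submitters' processing notes, spots were read with Agilent Feature Extraction 9.1.3.1. The deposited scanner files give spot intensity in both channels and a log10 ratio, per the file headers. The deposited series table holds log2 ratios whose making is not described; set against the scanner values it ran as treated over vehicle, with slopes of 0.69 to 1.03, r of 0.685 to 0.993 and column medians of -0.01 to 0.08.

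Intensities were corrected with normexp (offset 50), scaled by loess within each array with control spots at weight 0, and the 2 copies of a probe averaged (limma 3.58.1, R 4.3.3). A probe was kept when both copies were well above background on all 4 arrays of 1 compound in 1 channel: 16085 probes, 11508 genes. The brightest probe stands for a gene. Channel levels were scaled between arrays with Aquantile. Names came from RefSeq (GRCr8): of 21900 probes, 6176 matched a current symbol, 1918 an older one, 902 a record and 621 a gene ID, 150 kept the design's name and 12133 had none. The fits were checked on simulated data.

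All 6 compounds shared 1 fit of the spread. Alternatives were median centring, the scanner's ratios, the series table, no filter, the mean of probes, a replicate block and each rat left out. Replicate numbers are not said to pair the rats, and the main fit did not pair them. Same-numbered rats of different compounds correlated by -0.26 to 0.39, with a mean of 0.05, against a mean of -0.02 for other numbers. An effect of the number, which is also the position on the slide, was not tested apart from the rat. Treated rats are separate animals per the labels. The genes named are the 10 clock genes with every probe, up to 4 called genes per list and compound, and the 5 named genes most and least like Dbp and Noct. The genes and lists were chosen with earlier results of these data known.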

Additional observations from a re-analysis of the deposited data

Results flagged for a closer look

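Among 60 sets of 4 rats (10 genes, 6 compounds), 2 held a rat far from the other 3 by Dixon's criterion, and chance alone gives about 1 in 20. One Tef rat after hexachloroethane had a log2 ratio of 0.11, against -0.02 to 0.00 in the others. One Clock rat after 1-amino-2-methylanthraquinone had 0.089, against -0.07 to -0.05 in the others. The Tef probe is dim, and the Clock probe was well above background in neither channel on any array of that compound, so its values compare background signals.

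The log2 ratio of Noct differed between compounds by a test of the difference itself (limma), in which each pool is 1 sample. Hexachloroethane exceeded the mean of the other 5 compounds by 2.37 and tetracycline hydrochloride by 1.51, and 1,2,3-trichloropropane differed from it by -1.70. Hexachloroethane exceeded 1,2,3-trichloropropane by 3.39. The vehicle pools of these compounds stood at log2 levels of 8.34 (hexachloroethane), 8.89 (tetracycline hydrochloride) and 11.29 (1,2,3-trichloropropane), while treated means were 9.40, 9.23 and 8.95 for these. The level of a pool cannot be told apart from its scan day or slide.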

How the results depend on the processing

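Counts of clock genes called are given here in the order 1,2,3-trichloropropane, hexachloroethane, 1-amino-2-methylanthraquinone, monuron, 1,2-dichlorobenzene, tetracycline hydrochloride. Against vehicle, adjusted p alone gave 6, 4, 8, 9, 5 and 1, and against the other 5 compounds 4, 4, 6, 6, 3 and 7, and 4, 3 and 3 in the pairs, more by construction. Median centring, under which the median of all genes was -0.34 to -0.21, gave 2 for 1-amino-2-methylanthraquinone and 3 for monuron. It called 1085 and 471 of all 11508 genes after these 2 compounds, against 245 and 161 under the main scaling. The scanner's log ratios and the deposited series values gave 2 and 4 for these. Both, and no filter, gave 0 for 1,2-dichlorobenzene and 0 for tetracycline hydrochloride against the other 5, where Noct's adjusted p was 0.0509 to 0.0658. The scanner's ratios and the series values gave 1 for monuron against the other 5 and 2 between monuron and 1,2-dichlorobenzene, and the series values gave 1 between hexachloroethane and tetracycline hydrochloride. Of 33 values with an adjusted p under 0.05 against vehicle, 5 turned with median centring and 0 with the other scalings. The replicate block gave 1 for hexachloroethane (Noct, 1.06, adjusted p = 0.0293), and 8 of 24 rats were closest to their own number. The causes were not tested.

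Leaving out 1 rat gave 0 to 2 called for 1-amino-2-methylanthraquinone and for monuron, 0 to 1 for 1,2-dichlorobenzene, and against the other 5 compounds 0 to 1 for 1,2,3-trichloropropane and 0 to 0 for tetracycline hydrochloride. The F test counted 8 to 9.

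Chosen after seeing the data, 3 probes of a UniGene cluster, one of which the design describes as a CCR4-like gene and none of which the files name Noct, were put in its place. Probe 1607 gave -1.02 after 1,2,3-trichloropropane and was called there alone. It also passed at an adjusted p, under 2-fold, after 1-amino-2-methylanthraquinone (-0.65) and monuron (-0.75), but not after 1,2-dichlorobenzene (-0.43). Probe 500528, well above background on 1 treated array, gave -0.43, -0.36, -0.22 and -0.12 after these compounds in the same order. Probe 705841 turned to 0.053 after 1,2,3-trichloropropane and 0.085 after 1,2-dichlorobenzene. Without loess and Aquantile, Noct's pools spanned 3.42 and its treated means 0.99. Dim probes (Tef, Clock) limit small changes.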

Other observations

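Noct was lower in the rats numbered 3 and 4 than in both rats numbered 1 and 2 after 4 compounds, a division noticed after the values were seen. The higher of rats 3 and 4 had -3.33 after 1,2,3-trichloropropane, -2.10 after 1-amino-2-methylanthraquinone, -2.01 after monuron and -1.59 after 1,2-dichlorobenzene. The lower of rats 1 and 2 had -1.69, -1.27, -0.72 and -0.93 after these compounds in the same order. The rats given hexachloroethane and tetracycline hydrochloride did not divide this way. The number is also the array's position on the slide. On these arrays Noct varied within compounds by an SD of 0.07 in the vehicle pools and 1.08 in treated rats. Within the treated channel alone, position and rat cannot be told apart.

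Per1 probes 3194 and 703153 followed the same division after these 4 compounds. By probe 3194, rats 3 and 4 had -1.91 and -1.98 after 1,2,3-trichloropropane, against -0.42 and 0.01 in rats 1 and 2. They had -0.89 and -0.93 after 1-amino-2-methylanthraquinone, against 0.38 and 0.43. They had -0.84 and -1.52 after monuron, against 0.15 and -0.04, and -0.96 and -0.72 after 1,2-dichlorobenzene, against 0.20 and 0.06. Probe 1607 of the unnamed cluster correlated with the Noct probe by r = 0.97 over the 24 deviations, probe 500528 by 0.89 and probe 705841 by 0.63.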
